A study of Mus musculus with 12 samples.

Results

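The genes described here are 7 partners, repressors and feedback targets of the aryl hydrocarbon receptor (AhR), namely *Arnt*, *Arnt2*, *Ptges3*, *Ahrr*, *Cyp1a1*, *Cyp1b1* and *Tiparp*, in cultured mouse type II alveolar epithelial (AT2) cells. They were found by symbol, as the rows of the gene table that carry these names, which gave 7 of 55450 genes. All 7 passed the filter on low counts that left 20612 genes for testing. AT2 cells came from AhRf/f mice, in which the AhR gene carries loxP sites, and from Sftpc-Cre;AhRf/f mice, which carry the same floxed alleles together with a Cre recombinase. The Cre is driven by regulatory sequence of the surfactant protein C gene (Sftpc), so it recombines the floxed allele in cells that make that protein, and Cre without the floxed allele was not analysed here. The mice were on the C57BL/6 background and aged 6 to 8 weeks. Cells of each genotype received either PBS or 50 µg/ml of an extract of cockroach (CRE) for 24 h, which gives 4 groups of 3 RNA-seq libraries. The labels do not say whether the 3 libraries of a group came from separate mice, so the p-values measure the spread between these libraries, which may be technical.

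AhR is a transcription factor that waits in the cytosol in a complex with the chaperone HSP90 and the co-chaperone p23 (the product of *Ptges3*). Once a ligand such as a dioxin, a polycyclic hydrocarbon or a tryptophan metabolite binds, AhR enters the nucleus, pairs with ARNT and binds DNA at xenobiotic response elements whose core is GCGTG. Among the genes it switches on are *Cyp1a1* and *Cyp1b1*, which encode cytochromes P450 that oxidise many of these ligands, and *Ahrr* and *Tiparp*, whose products restrain the receptor. In barrier tissues such as the airway and the lung the level of these targets is widely used as a readout of AhR activity.

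RefSeq start sites were found for all 7 genes, and the 250 bases before each start were searched for GCGTG on both strands (CACGC on the strand shown is a match on the other). At least 1 match lay in the windows of *Arnt*, *Ptges3*, *Ahrr*, *Cyp1a1*, *Cyp1b1* and *Tiparp* and none in that of *Arnt2*, while 28.2% of 32851 mouse promoter windows of that length held 1. *Ahrr* had 3 matches, which 2.77% of all windows reached, and *Ptges3* had 2, which 8.63% reached. The GC content of the 7 windows ran from 53.6% to 75.6%, and these shares are over all windows, not windows of like GC content. The windows of the 4 feedback targets are printed because these 4 genes were the ones that stood lower in the Cre-carrying cells, with every match in capitals (RefSeq, build GRCm38.p6, 5′ to 3′ on the gene's strand).
Cyp1a1 (chr9:57697363-57697612, + strand): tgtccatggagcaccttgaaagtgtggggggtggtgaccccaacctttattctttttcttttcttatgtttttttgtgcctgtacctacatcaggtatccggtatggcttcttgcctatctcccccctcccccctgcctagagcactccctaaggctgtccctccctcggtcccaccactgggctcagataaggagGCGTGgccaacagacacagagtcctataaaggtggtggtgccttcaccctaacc
Cyp1b1 (chr17:79715062-79715311, - strand): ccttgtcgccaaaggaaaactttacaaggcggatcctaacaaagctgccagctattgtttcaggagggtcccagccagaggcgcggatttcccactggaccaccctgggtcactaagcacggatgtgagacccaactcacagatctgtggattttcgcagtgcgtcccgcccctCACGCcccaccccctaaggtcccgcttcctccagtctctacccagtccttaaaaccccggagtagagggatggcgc
Ahrr (chr13:74292332-74292581, - strand): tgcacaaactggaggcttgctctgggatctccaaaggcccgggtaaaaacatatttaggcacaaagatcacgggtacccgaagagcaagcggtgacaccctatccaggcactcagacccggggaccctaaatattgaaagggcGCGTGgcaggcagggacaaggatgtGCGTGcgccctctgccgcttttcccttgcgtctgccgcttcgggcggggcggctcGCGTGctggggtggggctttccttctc
Tiparp (chr3:65528197-65528409, + strand): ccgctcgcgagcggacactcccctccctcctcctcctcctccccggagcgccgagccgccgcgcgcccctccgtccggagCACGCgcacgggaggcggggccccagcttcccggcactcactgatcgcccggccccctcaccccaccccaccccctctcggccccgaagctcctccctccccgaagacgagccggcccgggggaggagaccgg
Bases that GENCODE M21 places in an exon of the gene were left off, which shortened the *Tiparp* sequence to 213 bases. The *Cyp1a1* window lies within the span of the longer GENCODE gene model (chr9:57687928-57703824) but outside its exons. The first base of the match was 107, 82 and 27 bases before the start in *Ahrr*, 54 in *Cyp1a1*, 76 in *Cyp1b1* and 170 in *Tiparp*, whose RefSeq start lies beyond the end of the printed bases. The longer form TNGCGTG, which contains the core and so overlaps it, was in 4.1% of windows and, among the 7 genes, only in that of *Ahrr*, where its core began 27 bases before the start. These are matches of letters, and elements farther upstream, where the best known ones of *Cyp1a1* lie, were not searched.

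Total counts per library ranged from 68878065 to 80935797, with TMM factors of 0.969 to 1.03, so depth differed little between groups. The 7 genes spanned wide depths, from 38 to 417 counts per library for *Ahrr* and 81 to 345 for *Arnt2* up to 2477 to 34666 for *Cyp1b1*. Summed levels (CPM, with library sizes scaled by TMM) over 10 AT2 markers were 7641 to 8610 in PBS-treated AhRf/f cells and 4497 to 8734 in PBS-treated Sftpc-Cre;AhRf/f cells. The summed level of 4 club cell markers was of like size, 4707 to 7675 and 4843 to 8106 CPM, but nearly all of it was *Scgb1a1*. In AhRf/f cells with PBS *Scgb1a1* was at 4693, 5306 and 7593 CPM. There *Cyp2f2* was at 11.1, 17.4 and 15.9 CPM, *Scgb3a2* at 2.45, 2.66 and 3.38 CPM and *Scgb3a1* at 0.454, 40.9 and 62.6 CPM. Leukocyte markers summed to 197 to 293 CPM in the libraries numbered 1 of the 4 groups and to 35.9 to 83.1 CPM in the other 8. No marker of the 7 cell type lists passed edgeR's test in any comparison. In such bulk samples fewer cells of a type and less RNA per cell cannot be told apart.

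The targeted gene, *Ahr* (chr12:35497974-35535038), was present in every library. It was at 42.9, 43.8 and 45.1 CPM in AhRf/f cells with PBS and at 56.2, 50.5 and 50.1 CPM with CRE. In Sftpc-Cre;AhRf/f cells it was at 49.6, 40.2 and 45.7 CPM with PBS and at 51.5, 37.7 and 49.5 CPM with CRE. The genotypes overlapped under both treatments, with log2 fold changes of 0.04 (SE 0.12) with PBS and -0.18 (SE 0.12) with CRE. In AhRf/f cells the CRE-treated libraries lay above the PBS-treated ones by a log2 fold change of 0.25 (SE 0.12, edgeR adjusted p = 0.555), which did not pass. The sources used here do not name the floxed part, and a count over the whole gene can take in exons outside it, so these values do not check the deletion, and the labels of the Cre-carrying libraries could not be checked on *Ahr* itself. The paper reports loss of AhR in AT2 cells of these mice by RT-PCR and by immunostaining of lung tissue.

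Per unit of length the 7 genes covered more than 2 orders of magnitude. In PBS-treated AhRf/f cells, mean FPKM (fragments per kilobase of transcript, scaled to library size) was highest for *Ptges3* at 87.5 ± 3.24 (SD, n = 3) and next for *Cyp1b1* at 58.6 ± 4.19. *Tiparp* followed at 23.7 ± 1.37 FPKM, *Cyp1a1* at 7.74 ± 2.21 FPKM and *Arnt* at 3.74 ± 0.356 FPKM. *Ahrr* at 0.295 ± 0.0896 FPKM and *Arnt2* at 0.260 ± 0.153 FPKM were lowest and overlapped, whereas each of the other neighbours in this order was separated by its libraries. *Ahr* itself stood at 6.36 ± 0.115 FPKM and overlapped *Cyp1a1*. With CRE the same order held in AhRf/f cells, with *Ptges3* at 99.5 ± 13.5 FPKM, *Cyp1b1* at 64.7 ± 8.67, *Tiparp* at 29.6 ± 2.07, *Cyp1a1* at 8.41 ± 2.55, *Arnt* at 3.87 ± 0.465, *Ahrr* at 0.461 ± 0.0606 and *Arnt2* at 0.433 ± 0.0679 FPKM, and again only the last pair overlapped. In PBS-treated Sftpc-Cre;AhRf/f cells the order differed. *Tiparp* at 12.3 ± 2.50 FPKM stood above *Cyp1b1* at 6.99 ± 2.23 FPKM, *Arnt* at 4.03 ± 0.191 FPKM stood above *Cyp1a1* at 2.49 ± 1.09 FPKM, and *Arnt2* at 0.229 ± 0.0498 FPKM stood above *Ahrr* at 0.108 ± 0.0574 FPKM. The libraries of each of these neighbouring pairs did not overlap, and *Ptges3* remained highest at 92.5 ± 9.43 FPKM. With CRE the Sftpc-Cre;AhRf/f order was alike, with *Ptges3* at 96.0 ± 9.63 FPKM, *Tiparp* at 13.2 ± 1.88, *Cyp1b1* at 7.26 ± 2.54, *Arnt* at 3.46 ± 0.475, *Cyp1a1* at 3.26 ± 1.56, *Arnt2* at 0.361 ± 0.0545 and *Ahrr* at 0.0888 ± 0.0535 FPKM, but there *Arnt* and *Cyp1a1* overlapped. The FPKM of *Cyp1b1* exceeded that of 95.7% of tested genes in PBS-treated AhRf/f cells and of 70.3% in PBS-treated Sftpc-Cre;AhRf/f cells.

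The comparison of the genotypes asks how the targets and partners of AhR stand when Cre is present in AT2 cells. The 4 feedback targets *Cyp1b1*, *Cyp1a1*, *Ahrr* and *Tiparp* were lower in all 6 Sftpc-Cre;AhRf/f libraries than in all 6 AhRf/f libraries, a separation in that direction shown by 0.674% of tested genes. The partners *Arnt*, *Arnt2* and *Ptges3* overlapped between genotypes under both treatments. In the quasi-likelihood test of edgeR, adjusted by Benjamini-Hochberg over the 20612 genes, 2 of the 7 genes, *Cyp1b1* and *Tiparp*, fell with PBS and the same 2 fell with CRE. Over all genes, 0.15% were called with PBS (0.102% lower) and 0.17% with CRE (0.112% lower), and 0.121% were called in both comparisons. Each of the 4 targets had an unadjusted p under 0.05 in both comparisons, as did 8.37% of tested genes with PBS and 5.95% with CRE, and each was lower without overlap, as were 7.38% and 5.43%. All 4 also met the rule of the study's methods (limma, unadjusted p below 0.05 and absolute log2 fold change above 0.5) under both treatments, which 1.76% of tested genes met as lower with PBS and 1.7% with CRE. The median log2 fold change of the 7 genes was -0.98 with PBS and -1.17 with CRE, against values near 0 (-0.0010 and -0.0034) over all tested genes.

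*Cyp1b1* (chr17:79701537-79715061), which encodes a cytochrome P450 that acts on oestrogens and polycyclic hydrocarbons, showed the widest separation of the 7. It was at 344, 404 and 404 CPM in AhRf/f cells with PBS and at 59.0, 31.7 and 43.3 CPM in Sftpc-Cre;AhRf/f cells with PBS. With CRE it was at 349, 465 and 460.0 CPM and at 63.9, 33.8 and 43.7 CPM. Every AhRf/f library was thus far above every Sftpc-Cre;AhRf/f library. Its level in Cre-carrying cells was 11.6% of that in AhRf/f cells with PBS (log2 fold change -3.10, SE 0.27, edgeR adjusted p = 8.8e-04) and 11.1% with CRE (log2 fold change -3.17, SE 0.27, edgeR adjusted p = 7.1e-04). The call held in all 15 alternative fits with an adjusted p, in each of these comparisons. *Cyp1b1* is also made by fibroblasts. The summed CPM of 7 fibroblast markers was 86.1 to 199 in AhRf/f and 85.4 to 272 in Sftpc-Cre;AhRf/f cells with PBS, so it overlapped between genotypes, and *Cyp1b1* in the Cre-carrying cells was lowest in the libraries numbered 2, where that sum was highest (272 CPM with PBS and 232 CPM with CRE). The part of these cells in the *Cyp1b1* level was not tested.

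*Cyp1a1* (chr9:57687928-57703824), the P450 gene most often used to read AhR activity, was at 31.4, 21.1 and 19.8 CPM in AhRf/f cells with PBS and at 11.2, 6.43 and 5.11 CPM in Sftpc-Cre;AhRf/f cells with PBS. With CRE the values were 34.5, 21.3 and 22.6 CPM and 15.2, 6.49 and 8.56 CPM. The genotypes did not overlap under either treatment, and library 1 was the highest of its group in all 4 groups. This order of libraries was shared by 7.77% of tested genes, and leukocyte and endothelial markers were also highest in the libraries numbered 1, and the part of this in the *Cyp1a1* level was not tested. The log2 fold change was -1.67 (95% confidence interval -2.50 to -0.84, edgeR adjusted p = 0.193) with PBS and -1.38 (interval -2.20 to -0.55, edgeR adjusted p = 0.454) with CRE, so neither passed the adjusted threshold. DESeq2 called both (adjusted p = 9.7e-04 and 0.0210). The nearest gene copy, *Cyp1a2*, had 0 to 4 counts per library.

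*Ahrr* (chr13:74211118-74292331), which encodes a repressor that competes with AhR for ARNT, was the rarest target. It was at 4.10, 2.96 and 2.33 CPM in AhRf/f cells and at 1.76, 0.681 and 0.895 CPM in Sftpc-Cre;AhRf/f cells with PBS. With CRE it was at 5.19, 5.25 and 4.23 CPM and at 1.54, 0.519 and 0.747 CPM. The genotypes lay apart under both treatments, more widely with CRE, where the lowest AhRf/f library was at 4.23 CPM and the highest Sftpc-Cre;AhRf/f library at 1.54 CPM. The log2 fold change was -1.49 (interval -2.48 to -0.50, edgeR adjusted p = 0.395) with PBS and -2.39 (interval -3.40 to -1.37, edgeR adjusted p = 0.137) with CRE. Under CRE it passed by DESeq2 (adjusted p = 7.6e-05) and by limma on log2(FPKM + 1), a scale that shrinks the change of so low a gene (log2 fold change -0.42, adjusted p = 0.0315). Its spread between replicates was wide, with a biological coefficient of variation of 0.416 against 0.143 for the more abundant *Tiparp*. The fitted trend for genes of the abundance of *Ahrr* was higher, at 0.514.

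*Tiparp* (chr3:65528410-65555518), which encodes an enzyme that adds ADP-ribose to AhR and so curbs it, had the tightest replicates of the 4 targets. It was at 119.8, 118 and 110.1 CPM in AhRf/f cells and at 48.6, 54.2 and 73.6 CPM in Sftpc-Cre;AhRf/f cells with PBS. With CRE it was at 141, 156 and 136 CPM and at 58.5, 57.5 and 76.7 CPM. The genotypes did not overlap, and *Tiparp* in Cre-carrying cells was at 50.7% of the AhRf/f level with PBS and 44.5% with CRE. The log2 fold change was -0.98 (SE 0.15, edgeR adjusted p = 0.0414) with PBS and -1.17 (SE 0.15, edgeR adjusted p = 0.0117) with CRE. The call with PBS was lost without any 1 of the 3 AhRf/f libraries (adjusted p = 0.118, 0.174 and 0.123 without libraries 1, 2 and 3) or without Sftpc-Cre;AhRf/f library 1 (0.163) or 2 (0.178). That with CRE was lost without AhRf/f library 2 (0.0685) or Sftpc-Cre;AhRf/f library 1 (0.0704) or 2 (0.0736). Part of *Tiparp* overlaps a pseudogene on the other strand, and the sources used here do not say whether counting used strand. Under CRE the summed level of 4 ciliated cell markers also separated the genotypes, at 96.6 to 139 CPM in AhRf/f and 141 to 238 CPM in Sftpc-Cre;AhRf/f cells, while with PBS the ranges of 105 to 140 and 138 to 231 CPM overlapped. The part of these markers in the levels of the 4 targets was not tested.

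**Figure D1:**
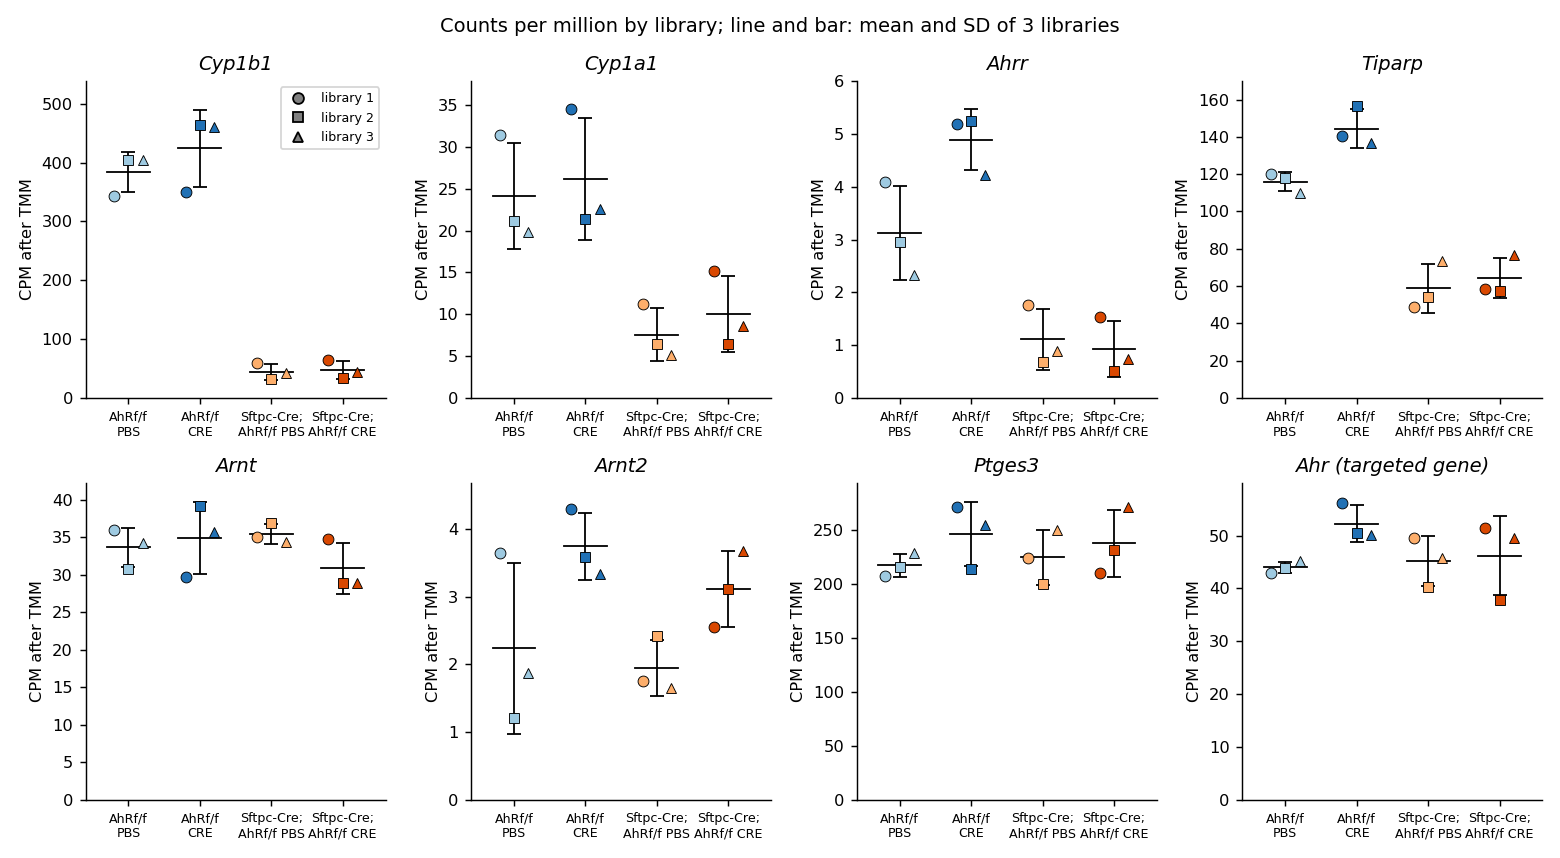
CPM after TMM scaling on linear axes that start at 0, for the 7 genes and the targeted gene Ahr, by group, with 1 point per library (the shape gives the library number), a line at the mean and bars of 1 SD (n = 3). In the upper row each Sftpc-Cre;AhRf/f point lies below every AhRf/f point, as with Tiparp at 48.6 to 76.7 CPM against 110.1 to 156 CPM, while the lower row shows overlapping genotypes.

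The partners of AhR did not separate the genotypes. *Arnt* (chr3:95434388-95497240), the obligate dimer partner of AhR and of the hypoxia factors, was at 35.9, 30.8 and 34.2 CPM in AhRf/f cells with PBS, and at 35.0, 36.9 and 34.3 CPM in Sftpc-Cre;AhRf/f cells with PBS. With CRE it was at 29.7, 39.2 and 35.7 CPM and at 34.8, 28.9 and 28.9 CPM. Its log2 fold change lay between -0.18 and 0.33 with PBS and between -0.43 and 0.08 with CRE (95% confidence intervals), and both intervals exclude a 2-fold change of *Arnt*. *Arnt2* (chr7:84246278-84410176), the paralogue of *Arnt* known best from neurons, was scarce at 3.64, 1.20 and 1.87 CPM in AhRf/f cells and at 1.75, 2.42 and 1.66 CPM in Sftpc-Cre;AhRf/f cells with PBS. Its genotype intervals of -1.0 to 0.59 with PBS and -1.06 to 0.53 with CRE (log2) were wide.

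*Ptges3* (chr10:128058954-128077272), the gene of the co-chaperone p23 that keeps AhR able to bind ligand, was at 208, 216 and 229 CPM in AhRf/f cells with PBS and at 224, 200.1 and 251 CPM in Sftpc-Cre;AhRf/f cells. Its genotype intervals were -0.21 to 0.31 with PBS and -0.31 to 0.21 with CRE on the log2 scale, so a change of *Ptges3* larger than these was not seen. A processed pseudogene of *Ptges3* had 3033 to 5544 counts per library beside the 14552 to 21832 of *Ptges3*, and how reads were divided between these copies is uncertain.

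**Figure D2:**
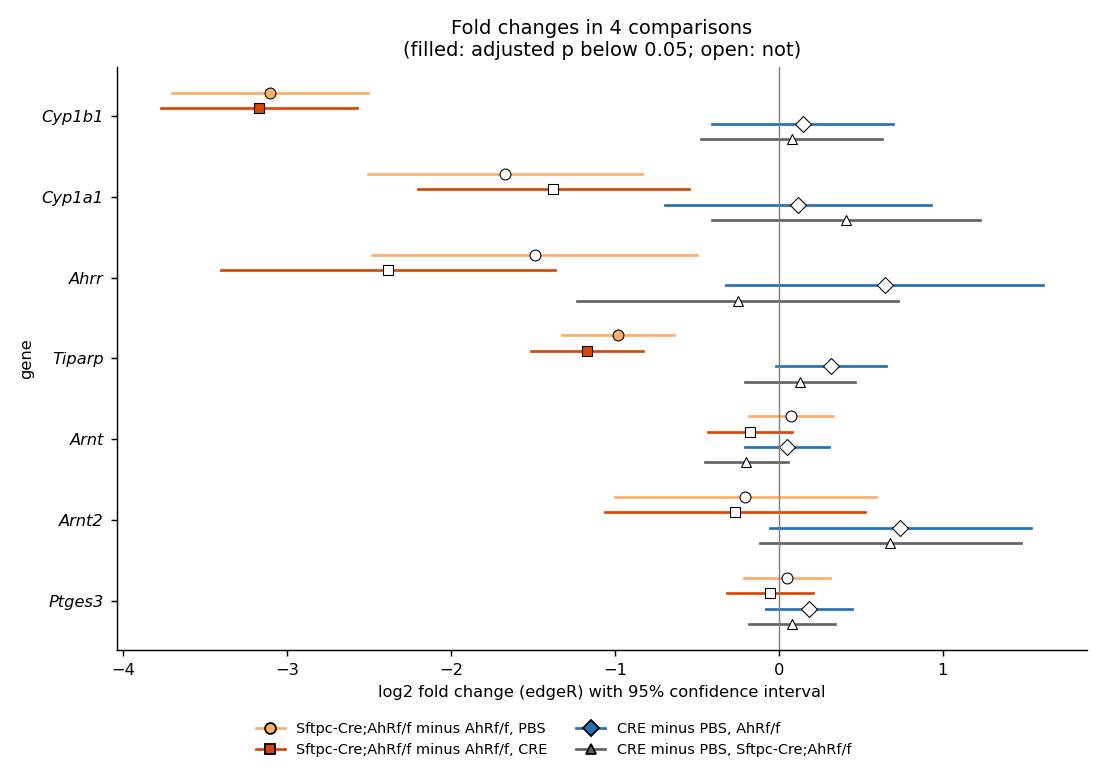
Log2 fold changes by edgeR in the fit without the library number (x axis) with 95% confidence intervals for the 7 genes (y axis) in 4 comparisons, filled where the adjusted p was below 0.05. The genotype estimates of the 4 targets reach from -0.98 to -3.17 and their intervals lie left of 0, while all intervals of Arnt, Arnt2 and Ptges3 and of the CRE responses cross 0.

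The comparison of CRE with PBS asks whether the allergen extract moved these genes in either genotype. In AhRf/f cells all 7 had a mean log2 fold change above 0 (49.8% of tested genes did). In the fit without the library number none passed edgeR's adjusted threshold, which 0.233% of tested genes did. None had an unadjusted p under 0.05 in that fit, which 9.36% of tested genes had, and DESeq2 called none of the 7. *Tiparp* came nearest to a separate response. Its CRE-treated AhRf/f libraries (141, 156 and 136 CPM) all lay above the PBS-treated ones (119.8, 118 and 110.1 CPM), and each library was above that of the same number, by log2 values of 0.23, 0.40 and 0.31. Libraries of the same number deviated together in this comparison, and with the number as a block the *Tiparp* log2 fold change was 0.31 (SE 0.059, edgeR adjusted p = 0.0399), among 1.87% of tested genes called higher in that fit, whereas without it the value was 0.32 (SE 0.15, adjusted p = 0.564). The summed AT2 markers were lower with CRE in these cells (6699 to 7371 against 7641 to 8610 CPM). Most of that sum was *Sftpc* (4699 to 5207 against 5476 to 6217 CPM). The 10 AT2 markers had a median log2 fold change of -0.15, and *Sftpd* and *Lamp3* were higher with CRE in each numbered pair. Summed AT1 markers were also lower (540.3 to 659 against 885 to 1065 CPM). The part of these markers in the *Tiparp* value was not tested.

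*Ahrr* was the other gene whose AhRf/f libraries did not overlap between treatments, at 5.19, 5.25 and 4.23 CPM with CRE and 4.10, 2.96 and 2.33 CPM with PBS. A higher level with CRE without overlap was shown by 8.82% of tested genes. The *Ahrr* log2 fold change was 0.64 (interval -0.32 to 1.61, edgeR adjusted p = 0.724), and the blocked fit gave 0.67 (SE 0.17, edgeR adjusted p = 0.0869). In Sftpc-Cre;AhRf/f cells *Ahrr* was lower with CRE in each numbered pair, with log2 ratios of CRE to PBS of -0.20, -0.39 and -0.26. The test of the difference between genotypes (their interaction) gave -0.90 (SE 0.62, unadjusted p = 0.179, edgeR adjusted p = 1.00) without the block and -0.95 (SE 0.25, unadjusted p = 0.0061, edgeR adjusted p = 0.494) with it, so the opposed directions did not pass the adjusted test. No other of the 7 genes had opposed directions in all numbered pairs, and the share of all tested genes that had them was not counted.

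For *Cyp1b1* and *Cyp1a1* the treatments overlapped in both genotypes. In AhRf/f cells the CRE response of *Cyp1b1* was 0.15 (95% confidence interval -0.41 to 0.70 on the log2 scale) and that of *Cyp1a1* was 0.12 (interval -0.69 to 0.93). In Sftpc-Cre;AhRf/f cells the responses were 0.08 (interval -0.48 to 0.63) for *Cyp1b1* and 0.41 (interval -0.41 to 1.23) for *Cyp1a1*. Between libraries of the same number both genes were higher with CRE in 3 of 3 pairs in each genotype, by log2 values of 0.02 to 0.20 for *Cyp1b1* and 0.01 to 0.19 for *Cyp1a1* in AhRf/f and of 0.01 to 0.11 and 0.01 to 0.74 in Sftpc-Cre;AhRf/f cells. The share of all tested genes higher in 3 of 3 pairs was not counted, here or for *Tiparp* and *Arnt2*. With the number as a block the *Cyp1b1* values were 0.14 (SE 0.048, edgeR adjusted p = 0.189) and 0.07 (SE 0.048, edgeR adjusted p = 0.581), and those of *Cyp1a1* were 0.11 (SE 0.13, edgeR adjusted p = 0.718) and 0.40 (SE 0.13, edgeR adjusted p = 0.239), so neither gene passed.

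*Arnt2* had the largest estimates of the 7 in the CRE comparisons. In AhRf/f cells it was at 4.29, 3.59 and 3.34 CPM with CRE and 3.64, 1.20 and 1.87 CPM with PBS, and in Sftpc-Cre;AhRf/f cells at 2.55, 3.12 and 3.67 CPM with CRE and 1.75, 2.42 and 1.66 CPM with PBS. Each CRE-treated library was thus above the PBS-treated one of its number in both genotypes, and only in Sftpc-Cre;AhRf/f cells did the groups not overlap, as for 6.49% of tested genes in that direction. The log2 fold changes were 0.74 (SE 0.36, edgeR adjusted p = 0.569) and 0.68 (SE 0.36, edgeR adjusted p = 0.846), neither of which passed. It was the only one of the 7 to meet the study's rule for CRE in AhRf/f cells, as 2.4% of tested genes did in that direction. *Arnt* moved by 0.05 (interval -0.20 to 0.31) in AhRf/f and -0.20 (interval -0.45 to 0.06) in Sftpc-Cre;AhRf/f cells. *Ptges3* moved by 0.18 (interval -0.08 to 0.44) and 0.08 (interval -0.18 to 0.34), with no test passed.

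In Sftpc-Cre;AhRf/f cells none of the 7 passed the CRE test without the block either, against 0.262% of tested genes. In that fit none had an unadjusted p under 0.05, against 6.48%, and DESeq2 called none of them. With the number as a block none of the 7 passed the adjusted threshold in these cells, against 2.13% of tested genes. The interaction of genotype and CRE was called for none of the 7 and for 0 of 20612 genes by edgeR, with or without the block. Without it, 763 genes (3.7%, none of the 7) had an unadjusted p under 0.05. DESeq2 called 23 genes, none of which was 1 of the 7.

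**Figure D3:**
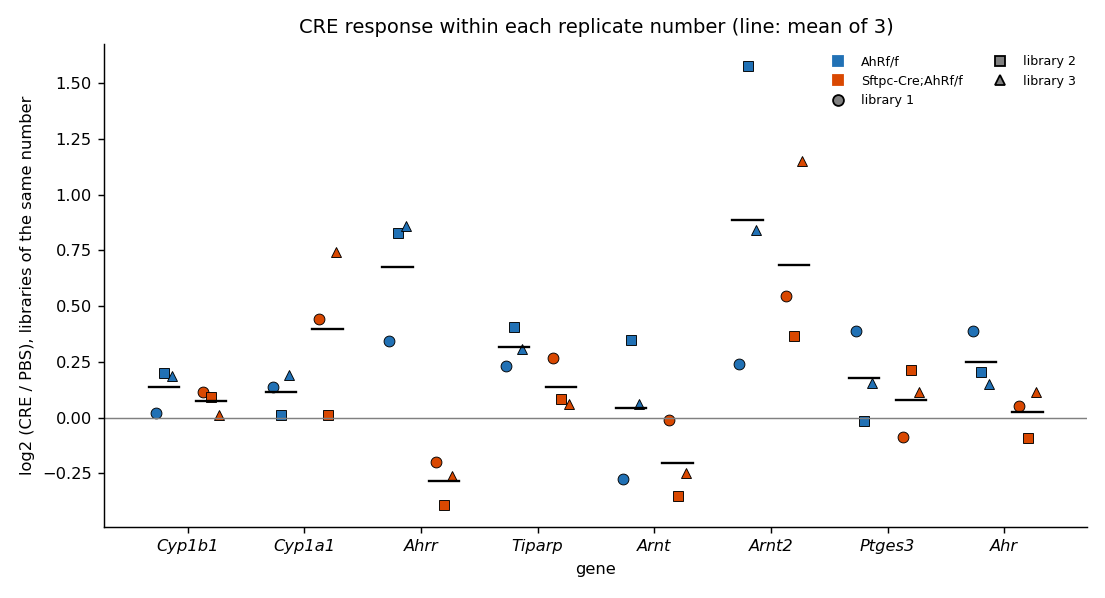
Log2 ratio of CRE to PBS (y axis) between libraries of the same number, for each of the 7 genes and Ahr (x axis) and each genotype, with a line at the mean of the 3 ratios. Tiparp was higher with CRE by 0.23 to 0.40 in all 3 AhRf/f pairs, and Ahrr is the gene whose pairs all lie above 0 in AhRf/f and all below 0 in Sftpc-Cre;AhRf/f cells.

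The levels of the targets relative to each other were compared within libraries. For each library the FPKM of *Cyp1b1* was divided by that of *Cyp1a1*, a ratio in which library size cancels. It was 8.03 ± 2.45 in AhRf/f and 2.97 ± 0.932 in Sftpc-Cre;AhRf/f cells with PBS (SD, n = 3), and 8.32 ± 3.04 and 2.31 ± 0.263 with CRE. The lowest AhRf/f library was at 4.83 and the highest Sftpc-Cre;AhRf/f library at 4.05, so the genotypes were apart. The ratio of *Cyp1b1* to *Tiparp* was 2.48 ± 0.304 against 0.594 ± 0.271 with PBS and 2.20 ± 0.331 against 0.560 ± 0.221 with CRE. *Cyp1b1* was thus the more abundant of the pair per unit of length in each AhRf/f library and the less abundant in each Sftpc-Cre;AhRf/f library. In contrast the ratio of *Cyp1a1* to *Tiparp* overlapped between genotypes, at 0.324 ± 0.0748 against 0.218 ± 0.129 with PBS.

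The ratio of *Ahr* to *Ahrr* transcripts was 22.9 ± 6.77 in AhRf/f and 70.8 ± 24.6 in Sftpc-Cre;AhRf/f cells with PBS. With CRE it was 16.6 ± 1.72 and 88.8 ± 32.7, and the genotypes did not overlap under either treatment. The *Ahr* count can take in exons outside the floxed part, so this ratio does not measure receptor per repressor. *Ahr* itself overlapped between genotypes. The ratio of *Ahr* to *Arnt* was between 1.41 and 2.46 in all 12 libraries. The ratio of *Arnt* to *Arnt2* separated treatments in Sftpc-Cre;AhRf/f cells, at 9.86 ± 2.88 with CRE and 18.0 ± 2.84 with PBS. Each of the 7 separations, among 24 tests of 6 ratios, had p = 0.1 by a two-sided exact permutation test over libraries, which is the smallest p that 3 against 3 libraries can give, and 0.343 after Benjamini-Hochberg adjustment over the 24. No ratio therefore could pass at 0.05.

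**Figure D4:**
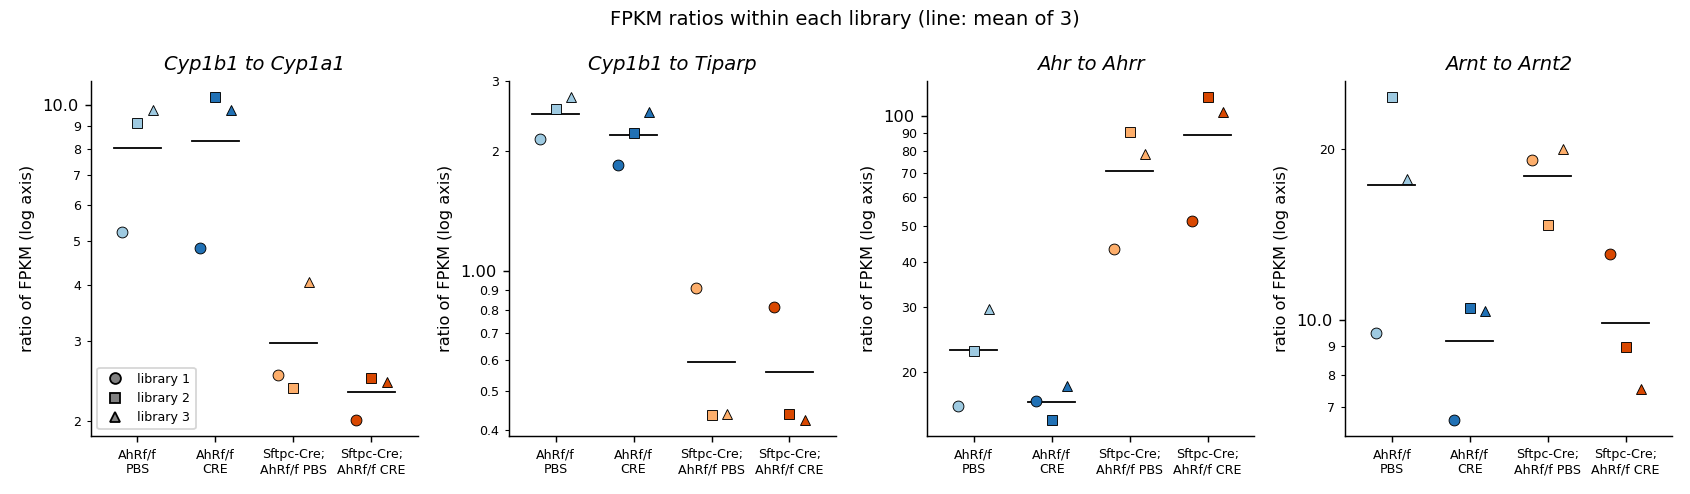
Ratios of FPKM within each library on log axes (y axis) for 4 gene pairs by group, with a line at the mean of 3. The ratio of Cyp1b1 to Tiparp is above 1.85 in every AhRf/f library and below 0.908 in every Sftpc-Cre;AhRf/f library, and that of Ahr to Ahrr runs the opposite way.

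Among 11 other genes known as AhR targets in some tissue, 10 were tested (*Cyp1a2* was too low) and 2 passed with PBS, 1 in each direction. *Nqo1*, which encodes a quinone reductase that is also a classic target of the stress factor NRF2, fell from 108 ± 12.9 CPM in AhRf/f to 42.9 ± 6.54 CPM in Sftpc-Cre;AhRf/f cells (log2 fold change -1.33, SE 0.13, edgeR adjusted p = 0.0016). With CRE it fell from 170.0 ± 3.32 to 64.4 ± 9.33 CPM (log2 fold change -1.40, SE 0.13, edgeR adjusted p = 0.0012). *Serpinb2*, the gene of plasminogen activator inhibitor 2, rose with PBS from 13.5 ± 2.39 to 45.9 ± 12.5 CPM (log2 fold change 1.77, SE 0.28, edgeR adjusted p = 0.0414), a direction opposite to that of the 4 feedback targets. Under CRE *Serpinb2* was at 9.50 ± 2.44 and 25.6 ± 6.59 CPM (log2 fold change 1.43, edgeR adjusted p = 0.134), a difference that passed by DESeq2 (adjusted p = 6.8e-05). Its call with PBS was lost without any 1 of the AhRf/f libraries (adjusted p = 0.105, 0.213 and 0.160 without libraries 1, 2 and 3) or without Sftpc-Cre;AhRf/f library 1 (0.163) or 3 (0.139). It was also lost without a filter (edgeR adjusted p = 0.05002) and in a fit of the compared groups only (0.127). The *Nqo1* call with PBS held in 14 of 15 alternative fits and was lost with the compared groups only (edgeR adjusted p = 0.0519). *Aldh3a1*, an aldehyde dehydrogenase gene often listed with *Cyp1a1* and *Nqo1*, was at 68.9 ± 21.0 and 22.6 ± 7.91 CPM with PBS and missed the threshold (log2 fold change -1.61, edgeR adjusted p = 0.0645).

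For CRE against PBS none of the 10 passed edgeR's adjusted test in either genotype without the replicate number, where *Nqo1* had adjusted p = 0.0961 and 0.149. By DESeq2 *Nqo1* passed in AhRf/f (adjusted p = 6.8e-04) and in Sftpc-Cre;AhRf/f cells (adjusted p = 0.0050). With the number as a block *Nqo1*, *Nfe2l2* (the gene of NRF2), *Aldh3a1* and *Gsta1* (a glutathione transferase) rose in both genotypes and *Serpinb2* fell in Sftpc-Cre;AhRf/f cells, against 3.63% of all tested genes called in AhRf/f and 2.13% in Sftpc-Cre;AhRf/f cells. In that fit *Nqo1* rose by 0.66 (SE 0.061, edgeR adjusted p = 0.0038) in AhRf/f and by 0.59 (SE 0.062, edgeR adjusted p = 0.0066) in Sftpc-Cre;AhRf/f cells on the log2 scale, and its interaction was -0.08 (edgeR adjusted p = 0.816).

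A pair of further lists held no call by edgeR in any comparison without the block. Of all tested genes, 0.15% to 0.262% were called in the genotype and CRE comparisons and none in the interaction, so lists of this size would seldom hold a call. These were 10 tested genes of other ARNT partners such as *Hif1a*, *Epas1* and *Clock*, and 11 co-regulators such as *Ncoa1*, *Ncor1* and *Ep300*. Their median log2 fold changes between genotypes were -0.01 and 0.12 with PBS and -0.13 and -0.13 with CRE. Of the 11 co-regulators, 9 had estimates above 0 for CRE in AhRf/f cells and 2 below. In Sftpc-Cre;AhRf/f cells 1 was above 0 and 10 below. All 11 interaction estimates were below 0 (median -0.22, against 0.0052 over all tested genes). The interaction is the difference of these responses, so its direction is not a separate result. Of the 11, 2 had an unadjusted interaction p under 0.05 by edgeR, as did 3.7% of tested genes, and none passed. For CRE in AhRf/f cells 49.8% of tested genes were above 0, and the shares for the other direction counts are not given here. With the block *Hif1a* (log2 fold change 0.20, edgeR adjusted p = 0.0409) and *Ep300* (0.36, edgeR adjusted p = 0.0341) rose with CRE in AhRf/f cells, among 1.87% of tested genes called higher in that fit.

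**Figure D5:**
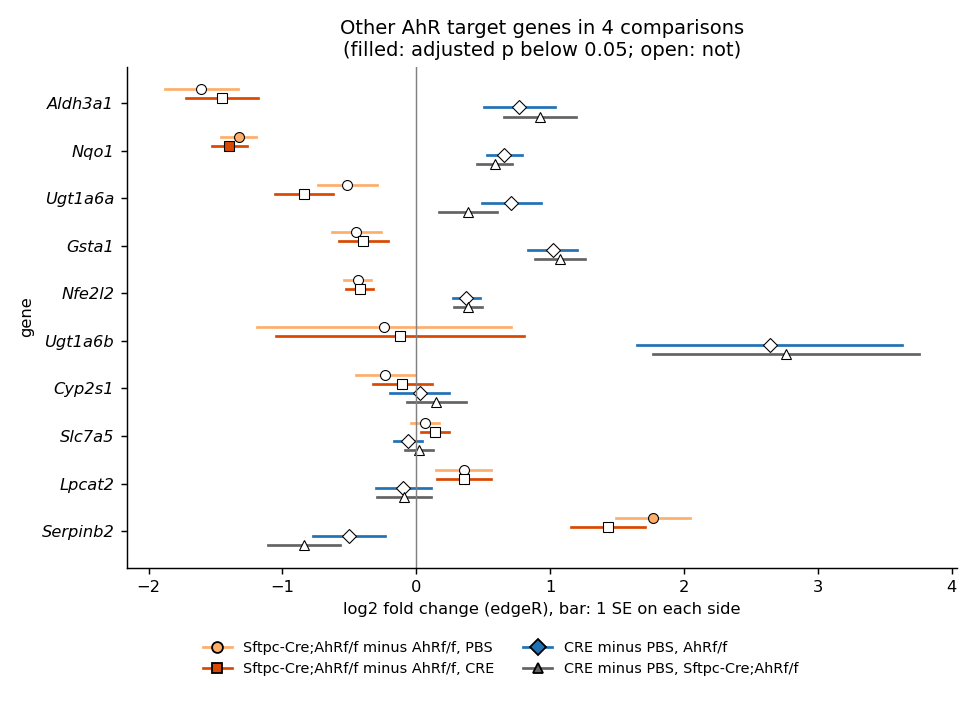
Log2 fold changes by edgeR without the replicate block (x axis, bars of 1 SE on each side) of 10 other AhR target genes (y axis) in the same 4 comparisons, filled where the adjusted p was below 0.05. Nqo1 is filled for the genotypes under both treatments at -1.33 and -1.40, and Serpinb2 with PBS at 1.77.

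The genes whose profiles over the 12 libraries were most like those of the 4 targets were found by the root mean square difference of log2 CPM, each gene centred on its own mean. *Xdh*, the gene of xanthine dehydrogenase, was nearest to *Tiparp* at 0.149, where the median of all tested genes was 0.675. *Xdh* had mean levels of 149.5 and 71.3 CPM in AhRf/f and Sftpc-Cre;AhRf/f cells with PBS and of 169 and 82.9 CPM with CRE. After it came *2610035D17Rik* at 0.213 and *Acp1*, a phosphatase gene, at 0.214, which lies on the chromosome of *Ahr* (*Acp1* at chr12:30893326-30911589). For *Ahrr* and for *Cyp1a1* the nearest gene was *Slc2a6*, the gene of a glucose transporter family member (0.338 and 0.362). For *Ahrr*, *Padi2* at 0.431 and *Cyp1a1* itself at 0.442 came next, and for *Cyp1a1*, *A730061H03Rik* at 0.393 and *Meox1* at 0.428. *Ces1g*, a carboxylesterase gene, was nearest to *Cyp1b1* at 0.430, followed by *Gm11642* at 0.563 and *Padi2*, a peptidylarginine deiminase gene, at 0.578, against a median of 1.65 for all tested genes. *Ces1g* had mean levels of 60.3 and 9.09 CPM in AhRf/f and Sftpc-Cre;AhRf/f cells with PBS and of 77.3 and 14.3 CPM with CRE. *Meox1* (chr11:101877510-101894374), *Gm11642* (chr11:103723950-103724532) and *2610035D17Rik* (chr11:113043895-113201838) lie on the same chromosome, and the part of position in these likenesses was not tested. The likenesses are descriptions over libraries that share groups, and *A730061H03Rik*, *Meox1* and *Gm11642* had group means under 1 CPM.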

How the data were processed

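RNA-seq counts of 12 libraries were used. The authors made stranded mRNA libraries, aligned reads to GRCm38 with STAR 2.7.2b and quantified genes with Salmon and Partek. The deposited count is a whole number per gene, not normalized, and the deposited FPKM was computed by the authors from it. How whole numbers were reached and whether counting used strand is not given in the sources used here. All 55450 gene IDs were named from GENCODE M21.

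Counts were scaled with TMM and filtered with filterByExpr (minimum count 10) in edgeR 4.0.16 under R 4.3.3. Contrasts of 1 fit of 4 group means were tested by quasi-likelihood with Benjamini-Hochberg adjustment at 0.05, and SEs are the fold change over the root of F. Alternatives were DESeq2 1.42.0, limma 3.58.1 (prior count 2, and the study's unadjusted rule), log2(FPKM + 1), other scalings and filters, a replicate block and leaving out each library. The fits were tested on simulated data. Members and lists were chosen with earlier results of these data known, the FPKM ratios after seeing the values. Genes named beside the 7 are *Ahr*, list genes called without the block, and the 3 nearest in profile to each target; *Aldh3a1* and list genes called only with the block were named after their values were seen. A list of the cytosolic complex is not reported here.

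Deviations from group means over 14543 genes correlated between CRE and PBS libraries of the same number at 0.742, 0.417 and 0.627 in AhRf/f and 0.597, 0.541 and 0.377 in Sftpc-Cre;AhRf/f cells, which pairs them.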

Additional observations from a re-analysis of the deposited data

How the results depend on the processing

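Between genotypes, the call of *Cyp1b1* held in each alternative tried. With PBS, where 2 of the 7 genes were called, 4 were called by the study's rule and 1 with RLE size factors, without a filter and with the compared groups only, and with CRE 4 were called by DESeq2 and by the study's rule. Leaving out 1 library gave 1 to 2 calls in each genotype comparison and 0 in each CRE response and the interaction. The cause of these moves was not tested, apart from the fewer libraries of the leave-one-out fits. For CRE in AhRf/f cells 1 gene was called by the study's rule (*Arnt2*) and 1 with the replicate block (*Tiparp*), and the block changed no other call of the 7 in the CRE responses or the interaction.

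Between genotypes the numbers did not pair the libraries (correlations of 0.431, 0.0972 and 0.135 with PBS and 0.416, 0.0087 and 0.0901 with CRE). There the replicate block called 2 of the 7 genes under each treatment, *Cyp1b1* (adjusted p = 0.0422 with PBS, 0.0358 with CRE) and *Cyp1a1* (0.0286 and 0.0438), but not *Tiparp* (0.229 and 0.124), with 15 and 22 calls over all genes against 31 and 35 without it. It called *Nqo1* and *Serpinb2* under both treatments (*Serpinb2* with CRE at adjusted p = 0.0267).

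Among uncalled values, leaving out 1 library turned the direction of some. With PBS the genotype log2 fold change ranged from -0.50 to 0.34 for *Arnt2*, -0.037 to 0.13 for *Ptges3* and -0.032 to 0.12 for *Ahr*, and with CRE from -0.16 to 0.03 for *Ptges3*. The CRE response in AhRf/f cells ranged from -0.042 to 0.15 for *Arnt* and -0.14 to 0.35 for *Cyp1a1*. In Sftpc-Cre;AhRf/f cells it ranged from -0.023 to 0.17 for *Ptges3*, -0.81 to 0.25 for *Ahrr*, -0.0096 to 0.80 for *Cyp1a1*, -0.21 to 0.33 for *Cyp1b1*, -0.020 to 0.32 for *Tiparp* and -0.051 to 0.16 for *Ahr*. The interaction ranged from -0.60 to 0.24 for *Arnt2*, -0.13 to 0.69 for *Cyp1a1*, -0.35 to 0.18 for *Cyp1b1* and -0.34 to 0.0046 for *Tiparp*. *Ahrr* and *Arnt2* had the fewest counts, 38 to 417 per library, and the widest spread beyond counting error (biological coefficients of variation of 0.416 and 0.362). Both values were below the fitted trend for genes of their abundance (0.514 and 0.508).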
